A study of Bos taurus with 96 samples.

Results

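Matrix metalloproteinases (MMP), their tissue inhibitors (TIMP) and the ADAM and ADAMTS proteases were followed across 5 fat depots and a muscle of beef steers. A gene was taken when its bovine RefSeq symbol, or its symbol in the probe tables of the study, was one of these 4 family names followed directly by a number. Among the 10680 named genes that were tested, 35 met this rule, namely 10 MMP, 4 TIMP, 8 ADAM and 13 ADAMTS genes. They were read by 68 tested probes. A further 7 genes (ADAM2, ADAM3A, ADAMTS3, ADAMTS18, MMP7, MMP20 and MMP27) had spots on the array but none among the tested probes, and they are described apart from the others.

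RNA from 96 samples was hybridised to a 1 colour Agilent bovine array, a sample per array, and the scanner read an intensity per spot. The fat depots were subcutaneous (SC, from the rump), intramuscular (IMF), intermuscular (Inter), omental (Omen) and kidney fat (Kid). Each had 12 arrays, made up of 4 from each of the breeds Angus, Wagyu x Angus and Hereford. The longissimus dorsi muscle (LD), the large back muscle in which IMF lies, gave 24 arrays from steers on pasture, 8 per breed, and 12 from steers given a supplement after weaning, 4 per breed. The fat came from steers that had been on pasture after weaning. The series gives an age of 26 months, and the labels give 259 days in a feedlot for all 96 samples, the 2 feeding groups included, whereas the methods of the study place part of the LD samples at an earlier kill that the labels do not name. Depots were dissected from shared steers, and the labels do not tie an array to an animal, so the 12 arrays of a depot were treated as separate samples and depots could not be paired within a steer.

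MMPs are secreted or membrane bound zinc enzymes that cut collagens, gelatins and other proteins of the extracellular matrix, and the TIMPs bind their active sites. ADAMs are membrane proteins, several of which release the outer parts of receptors and growth factors from the cell surface. ADAMTS enzymes are secreted, and different members cut large proteoglycans such as aggrecan and versican or remove the amino terminal propeptides of collagens. In fat, turnover of the collagen network around the adipocytes accompanies expansion of the depot and the formation of new adipocytes.

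Expression is given throughout on a log2 scale on which 0 is the 75th percentile of the array, so that a difference of 1 is a doubling of signal. Groups were compared with limma over all 34227 probes tested, and a difference was called at an adjusted p (Benjamini-Hochberg) under 0.05. A gene was represented by its tested probe with the highest mean over the 96 arrays, and 16 of the 35 genes had 1 tested probe. For 21 of the 35 genes that probe was well above background on all 96 arrays, as judged by the scanner. The levels of different probes were not compared with each other.

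The arrays differed in ways that moved with the groups. All 12 IMF arrays were scanned on the third of 3 days, 11 of the 12 SC arrays on the first, all 12 Inter arrays on the second and 10 of the 12 Omen arrays on the third, while Kid arrays fell on all 3 days. All 11 skeletal muscle markers measured were higher in IMF than in SC, and their summed level ran from 9.95 to 11.48 in IMF, from 0.28 to 1.24 in SC and from 11.91 to 12.42 in LD on pasture. On 2 Inter arrays and 2 Kid arrays the muscle sum lay more than 2 above the highest SC array, at 6.28 and 9.68 and at 3.83 and 4.15. In IMF, 7 of 7 adipocyte markers, 7 of 7 macrophage markers and 8 of 8 fibroblast markers were lower than in SC. The adipocyte sum had a median of 8.64 in IMF and 9.66 in SC, the macrophage sum 4.34 and 5.95, and the fibroblast sum 8.25 and 9.06. Fibroblast markers were also lower than SC in Inter (5 of 8), Kid (7 of 8) and Omen (8 of 8), with median sums of 8.58, 7.17 and 8.01. Of 7 endothelial markers 3 were lower in IMF (median sum 5.43 against 6.23), and of 5 mesothelial markers 3 were lower in Inter and in Kid (2.82 and 3.40 against 4.10). Endothelial markers higher and lower than SC were 2 and 3 in Inter, 2 and 1 in Kid, and 3 and 0 in Omen. For adipocyte markers these counts were 1 and 3 in Inter, 0 and 2 in Kid, and 1 and 3 in Omen. The part of the RNA of these cell types in the differences below was not tested, and in whole tissue fewer cells of a type cannot be told apart from less RNA per cell.

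Where a protease or inhibitor gene was called against SC it was more often lower than higher. Over the 5 depots 31 of the 35 genes passed the F test, which is near the share of all probes (87.1%) and so not particular to these genes, and ADAM22, ADAMTS15, MMP13 and MMP15 did not by their chosen probes. The second ADAMTS15 probe did (adjusted p = 0.00286), but only 3 of 12 SC arrays had it well above background, so no size is given. In IMF 8 genes were higher and 21 lower than in SC, where 31.2% of all probes were higher and 33% lower. The median difference of the 35 genes was -0.60, and that of all probes was 0.00. The other depots showed smaller shifts. In Inter 6 genes were higher and 14 lower (all probes 21.6% and 27.2%), with a median of -0.21 against -0.05 for all probes. In Kid 6 were higher and 15 lower (all probes 19.4% and 22.2%), with a median of -0.33 against -0.01. In Omen 4 were higher and 12 lower (all probes 20.5% and 25.2%), with a median of -0.26 against -0.03. In Inter and Omen more genes were not called (15 and 19) than were lower. Over all 68 probes of these genes, 16 were higher and 37 lower in IMF, 13 and 15 in Inter, 15 and 23 in Kid, and 13 and 18 in Omen, so the lean to lower levels in Inter, Kid and Omen was weaker by probe than by gene. These 4 comparisons share the 12 SC arrays. With normexp, a model based background correction of the median spot signals that lowered the median difference of all probes by 0.23 to 0.28, the genes divided into 4 higher and 25 lower in IMF, 4 and 20 in Inter, 4 and 24 in Kid, and 4 and 21 in Omen. Calls of all probes leaned the same way with normexp, as 26.4, 19.2, 20.2 and 16.4% of them were higher in IMF, Inter, Kid and Omen.

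The called differences had the same sign in each of the 3 breeds, in 29 of 29 genes for IMF, 20 of 20 for Inter, 21 of 21 for Kid and 16 of 16 for Omen. Breeds and scan days are parts of the arrays that gave the calls. Agreement of sign within them, here and below, is thus no separate evidence, and it was not counted for all called probes. Scan day touched the called differences unequally. With scan day as a block, fitted over all 96 arrays, 21 of the 29 IMF calls remained, 13 of 20 for Inter, 19 of 21 for Kid and 13 of 16 for Omen. With the block fitted on the compared arrays alone, where IMF and Omen met SC on 1 day through a single SC array of that day, 10 of 29 and 2 of 16 remained, and 18 of 21 remained for Kid. Within the first day, 5 Kid arrays against 11 SC arrays gave the same sign in 21 of 21 called genes. Within the third day, against its 1 SC array, 12 IMF arrays did so in 27 of 29 genes, all but ADAMTS7 and ADAMTS17, and 10 Omen arrays in 15 of 16, all but ADAM17. With slide as a random block 27 of 29 calls remained for IMF, 15 of 20 for Inter, 19 of 21 for Kid and 15 of 16 for Omen. Without the 2 Inter and 2 Kid arrays with muscle signal, an alternative chosen after seeing the data, 20 of 20 and 20 of 21 calls remained.

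**Figure D1:**
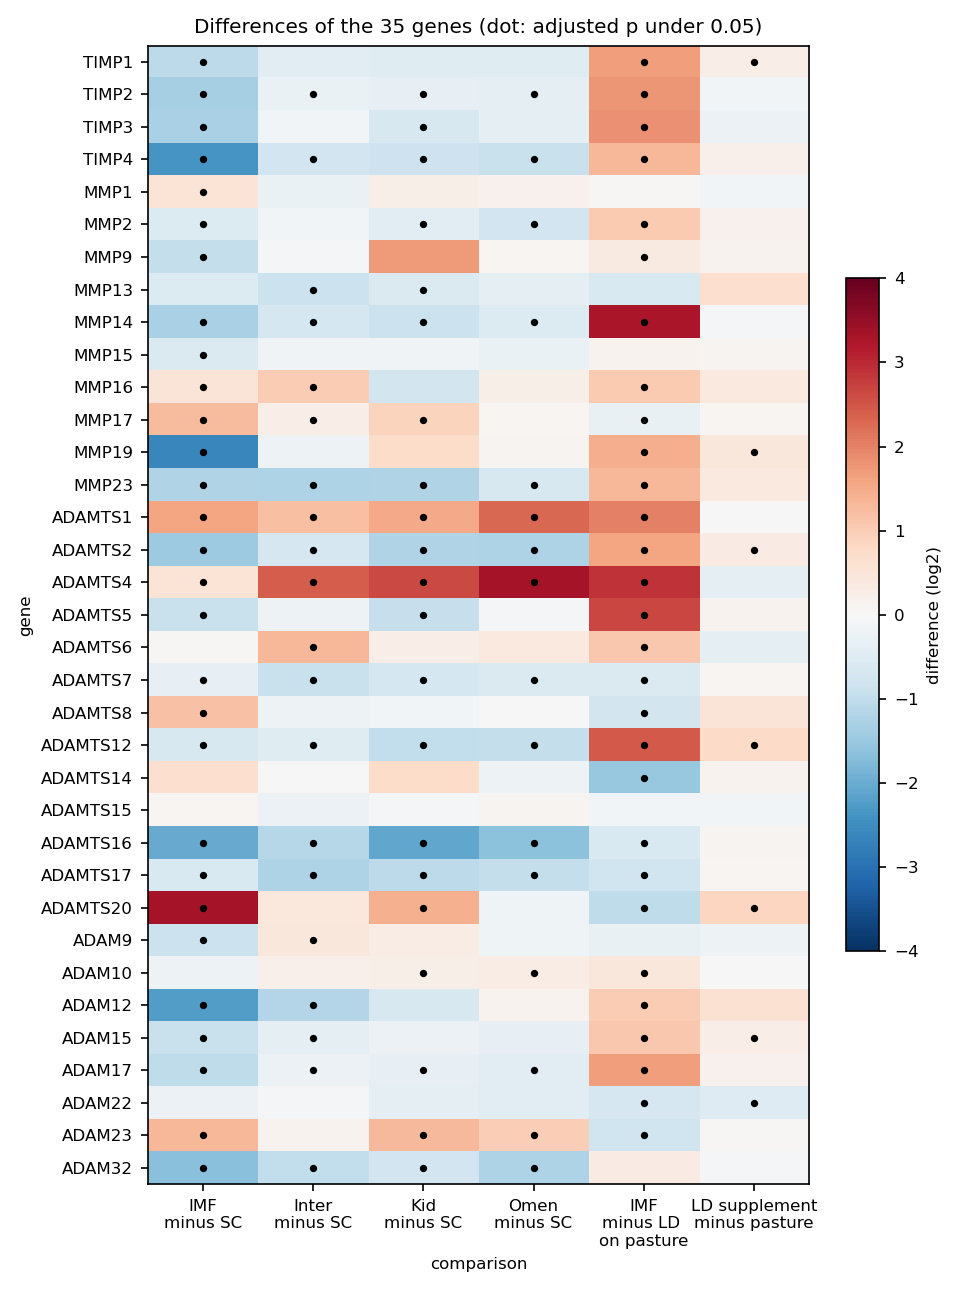
Each row is one of the 35 genes and each column a comparison, that is, every other fat depot against SC, IMF against LD on pasture, and supplement against pasture in LD. Colour gives the difference on the log2 scale (red higher, blue lower in the group named first) and a dot marks an adjusted p under 0.05. ADAMTS1 and ADAMTS4 were higher than SC in all 4 depots, and all 4 TIMP genes were lower in IMF than in SC and higher in IMF than in LD.

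The inhibitors were lower in IMF than in SC. TIMP4 showed the largest difference, and it is a gene that the study had singled out on these same samples, so its direction here is no independent evidence. TIMP4 ran from 5.11 to 5.88 in SC, with a median of 5.57, and from 2.28 to 3.89 in IMF, with a median of 3.13. All 12 IMF arrays thus lay below all 12 SC arrays, by -2.36 ± 0.16 (SE, adjusted p = 7.71e-12), or 5.14-fold. The 2 other TIMP4 probes gave -1.57 ± 0.18 and -1.90 ± 0.19, both called. In the remaining depots the TIMP4 probes did not give one answer. The chosen probe was lower by -0.77 ± 0.15 in Inter, -0.82 ± 0.14 in Kid and -0.89 ± 0.11 in Omen, all called, whereas the 2 others lay between -0.23 and 0.11 there and were not called.

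TIMP2, which blocks MMPs and also takes part in the activation of MMP2 by MMP14, ran from 6.27 to 7.15 in SC (median 6.79) and from 4.04 to 6.44 in IMF (median 5.29). Of the 12 IMF arrays, 11 lay below every SC array. The difference was -1.34 ± 0.20 (SE, adjusted p = 3.65e-06), and the 2 other probes gave -1.28 and -1.30, both called. TIMP2 was also called lower in Inter, Kid and Omen, by -0.27 to -0.37, but after quantile normalization these 3 differences were -0.01, -0.12 and -0.11 and none was called.

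TIMP3, the inhibitor that stays bound to the matrix and also acts on ADAM and ADAMTS enzymes, ran from 1.72 to 3.21 in SC (median 2.72), from 0.47 to 2.33 in IMF (median 1.29) and from 1.10 to 2.77 in Kid (median 1.97). The IMF and Kid ranges sat below SC but overlapped it. The differences were -1.31 ± 0.21 in IMF (adjusted p = 7.37e-06) and -0.65 ± 0.20 in Kid (adjusted p = 0.0106), and the 2 other probes were called lower in both. Inter and Omen gave -0.10 ± 0.17 and -0.35 ± 0.18 and were not called.

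TIMP1, a soluble inhibitor of most MMPs, ran from 1.83 to 3.77 in SC (median 3.02) and from 0.99 to 2.39 in IMF (median 1.82). The ranges overlapped, with 6 of 12 IMF arrays below every SC array. The difference was -1.05 ± 0.22 (adjusted p = 0.000208), and the second probe gave -0.99 ± 0.23. In Inter, Kid and Omen TIMP1 differed from SC by -0.45, -0.50 and -0.50, with SE of 0.22 to 0.27, and was not called. Among the TIMP genes, TIMP1 and TIMP2 lost their IMF call with a block for scan day among the compared arrays, at -1.52 (adjusted p = 0.0586) and -1.39 (adjusted p = 0.0657), and kept the direction.

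**Figure D2:**
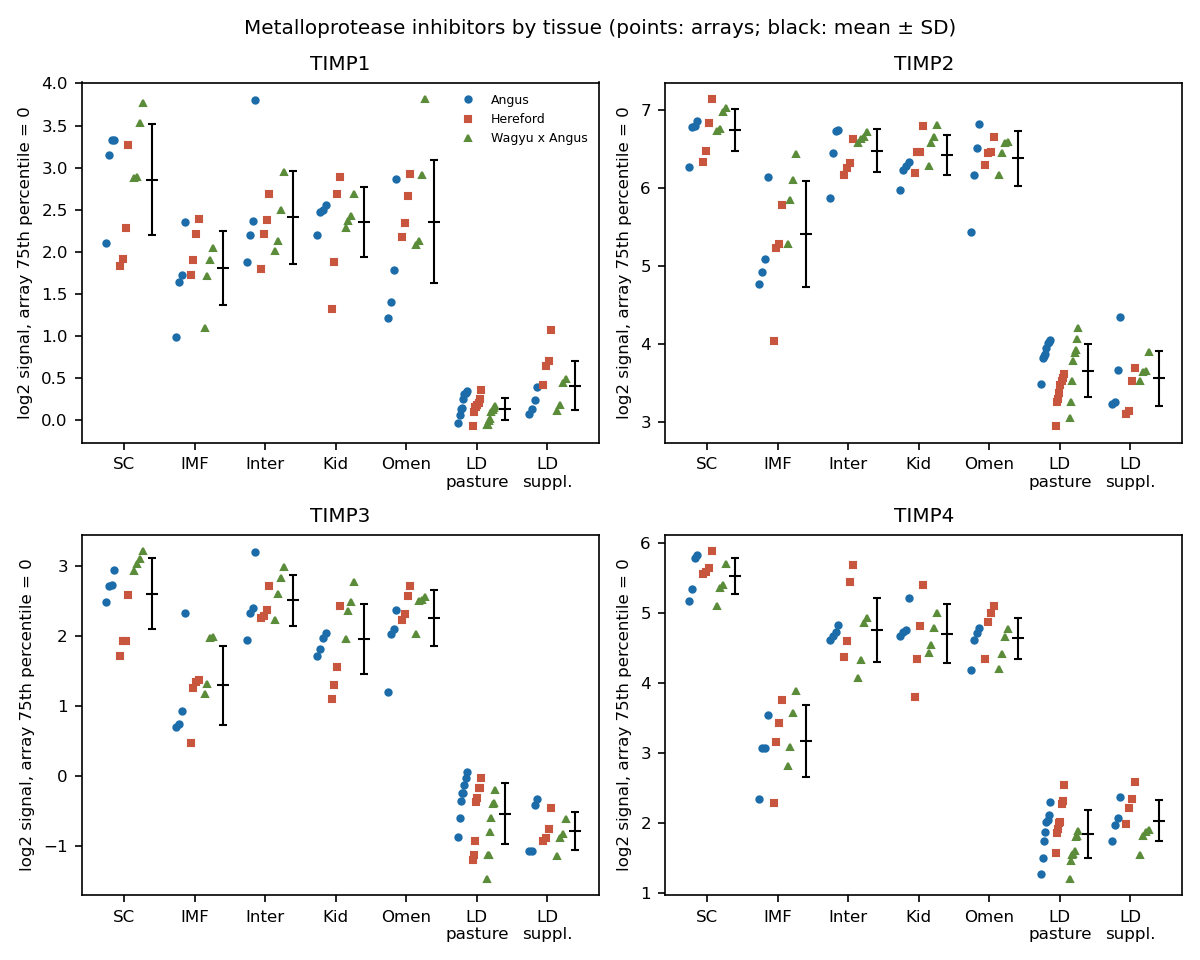
TIMP1, TIMP2, TIMP3 and TIMP4 on the log2 scale in each of the 7 groups, with a point per array and the mean ± SD in black; 0 is the 75th percentile of an array. Each TIMP is highest in SC on average and lowest in LD, and IMF lies between them, for TIMP4 from 2.28 to 3.89 against 5.11 to 5.88 in SC.

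Among the MMPs, MMP14 and MMP19 stood out. MMP14, the membrane bound MMP that activates MMP2, was lower than SC in each of the 4 other depots. It ran from -1.14 to -0.43 in SC (median -0.82), from -3.35 to -1.42 in IMF (median -2.00) and from -2.33 to -1.16 in Kid (median -1.70). No IMF or Kid array reached the SC range. The differences were -1.30 ± 0.18 in IMF (adjusted p = 1.31e-06), -0.85 ± 0.13 in Kid (adjusted p = 1.17e-05), -0.71 ± 0.12 in Inter (adjusted p = 2.79e-05) and -0.55 ± 0.10 in Omen (adjusted p = 6.38e-05). MMP14 had a single tested probe. With a block for scan day among the compared arrays it was not called in IMF (-1.22, adjusted p = 0.0735) or Omen (-0.45, adjusted p = 0.334).

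MMP19, an MMP found in blood vessels and in macrophages, ran from 0.51 to 2.44 in SC (median 1.57) and from -2.04 to 0.23 in IMF (median -1.01). No IMF array reached the SC range. The difference was -2.61 ± 0.26 (SE, adjusted p = 5.53e-09), or 6.12-fold, and the 2 other probes gave -1.22 and -2.12, both called. In the other depots the arrays of MMP19 were widely spread rather than shifted. Kid ran from -0.38 to 6.43 (SD 2.31), Inter from -0.58 to 3.58 and Omen from 0.34 to 3.48, and none of these differed from SC at the threshold (0.73 ± 0.65, -0.20 ± 0.34 and 0.10 ± 0.31). MMP9 was spread in the same way in Kid. The macrophage marker sum ran from 5.42 to 7.91 in Kid and from 5.34 to 7.75 in SC, and its part in this spread was not tested.

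MMP2 and MMP9 are the gelatinases, which cut denatured collagen and the collagen of basement membranes. MMP2 was lower than SC in IMF (-0.55 ± 0.15, adjusted p = 0.00286), Kid (-0.43 ± 0.14, adjusted p = 0.0198) and Omen (-0.76 ± 0.17, adjusted p = 0.000673), with overlapping ranges, and gave -0.11 ± 0.17 in Inter. The Kid call was lost with slide or scan day as a block over all arrays, at -0.39 (adjusted p = 0.0709) and -0.36 (adjusted p = 0.0728). With a block for scan day among the compared arrays MMP2 was not called in IMF (-0.79), Kid (-0.32) or Omen (-0.93). MMP9 ran from -2.12 to 0.06 in SC and from -2.82 to -1.87 in IMF, a difference of -0.96 ± 0.19 (adjusted p = 0.000107). That call was lost with scan day as a block over all 96 arrays (-1, adjusted p = 0.19). It was also lost with the spread estimated from all 96 arrays (-0.96, adjusted p = 0.0713). With the block among the compared arrays the difference was -0.39 and not called. The chosen probe was well above background on every array. The second MMP9 probe was called higher in IMF (adjusted p = 0.0013), but it was above background on only 3 of 12 SC arrays, and a further probe, outside the tested table and above background on 7 SC and 4 IMF arrays, was called lower (adjusted p = 0.0135 over all non-control probes). In Kid MMP9 reached from -2.73 to 5.45, and its difference of 1.71 ± 0.77 was not called (adjusted p = 0.075), while the second and the further probe were called higher there (adjusted p = 0.0224 and 0.0442).

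The other MMPs moved in both directions. MMP17, a lipid anchored MMP, was higher in IMF by 1.28 ± 0.10 (adjusted p = 2.1e-10) with no overlap, at -3.36 to -2.38 against -4.56 to -4.00 in SC, and in Kid by 0.88 ± 0.12. With normexp the Kid difference was -0.01. MMP23 was lower by -1.21, -1.22, -1.21 and -0.65 in IMF, Inter, Kid and Omen, all called, but its second probe was called in Kid alone (-0.50 ± 0.16). MMP16, a membrane bound MMP, was higher in Inter by 1.03 ± 0.22 (adjusted p = 0.00053), and its 2 other probes were higher there too, by 0.85 and 0.93.

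**Figure D3:**
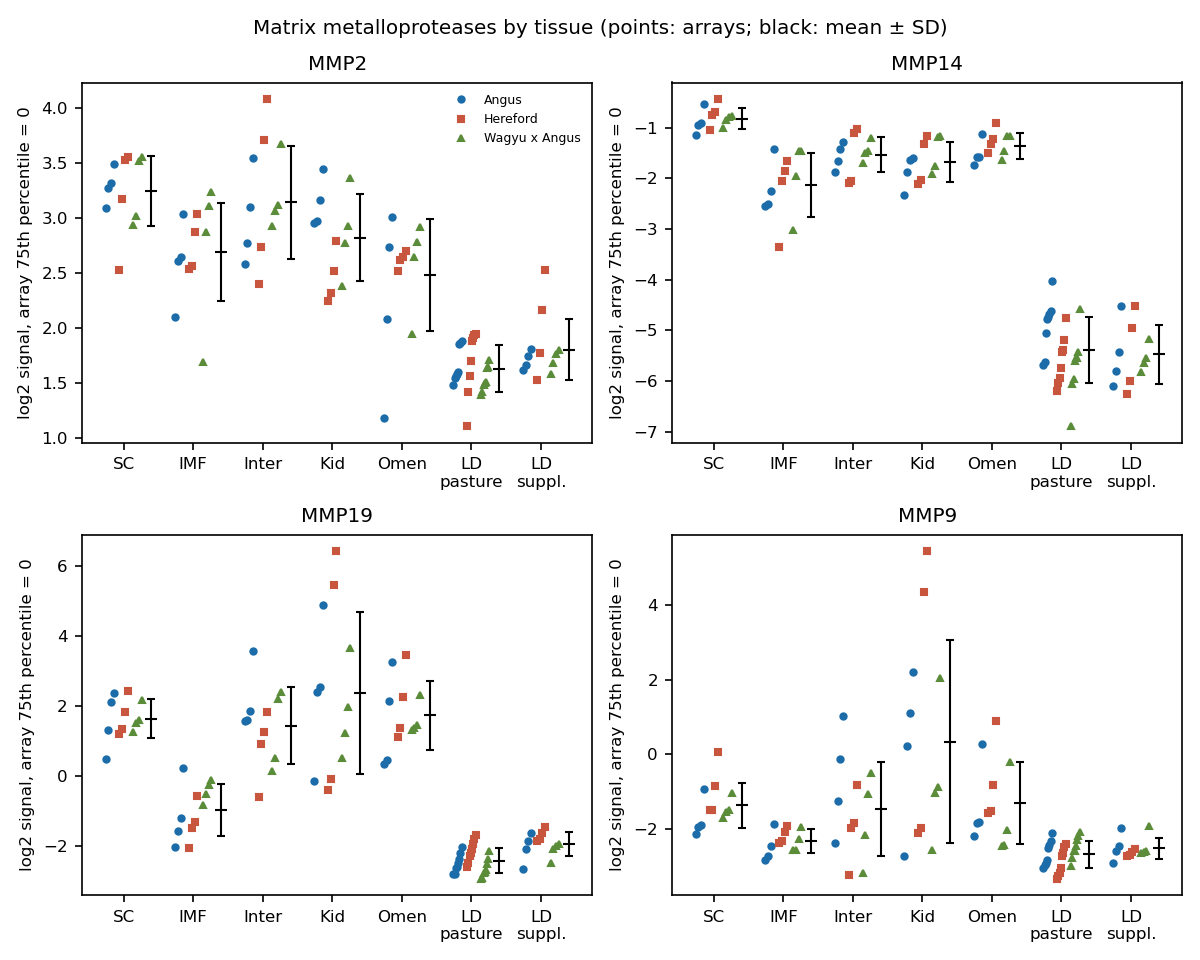
MMP2, MMP14, MMP19 and MMP9 on the log2 scale in each of the 7 groups, with a point per array and the mean ± SD in black. MMP14 and MMP19 in IMF lie wholly below SC, while the Kid arrays of MMP19 and MMP9 spread from -0.38 to 6.43 and from -2.73 to 5.45.

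2 ADAMTS genes were higher than SC in each of the other depots. Both encode enzymes that cut the proteoglycans aggrecan and versican. ADAMTS1 ran from 2.48 to 4.24 in SC (median 3.67), from 4.53 to 5.67 in IMF (median 4.96), from 3.96 to 5.18 in Inter (median 4.75), from 3.14 to 5.77 in Kid (median 4.99) and from 4.76 to 6.55 in Omen (median 5.77). All IMF and Omen arrays lay above all SC arrays, as did 11 of 12 in Inter and in Kid. The differences were 1.59 ± 0.19 in IMF (adjusted p = 1.11e-07), 2.30 ± 0.21 in Omen (1.05e-08), 1.21 ± 0.18 in Inter (1e-05) and 1.53 ± 0.24 in Kid (2.29e-05), which is 3.01, 4.94, 2.31 and 2.88-fold. The 2 other ADAMTS1 probes were called higher in all 4 depots, by 1.37 to 2.63.

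ADAMTS4 ran from 0.35 to 2.02 in SC (median 1.04), from 1.35 to 4.94 in Inter (median 3.53), from 2.06 to 4.36 in Kid (median 3.89) and from 3.44 to 5.19 in Omen (median 4.44). Every Kid and Omen array exceeded every SC array, and 11 of 12 Inter arrays did. ADAMTS4 was higher by 2.43 ± 0.29 in Inter (5.7e-07), by 2.65 ± 0.23 in Kid (5.54e-09) and by 3.33 ± 0.23 in Omen (adjusted p = 7.63e-11), the last a 10.1-fold difference. By the chosen probes it was the largest difference of the 35 genes in each of these 3 depots. In IMF ADAMTS4 ran from 0.58 to 2.67 (median 1.57), largely within the SC range. Its difference there was 0.54 ± 0.22 (adjusted p = 0.0317). The 2 other probes were called in Inter, Kid and Omen, by 1.40 to 3.25, and gave 0.40 each in IMF, where the call was made for 1 of them.

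By its chosen probe ADAMTS5, another aggrecan cutting enzyme, did not move with these genes, although RefSeq places it beside ADAMTS1 on chromosome 1. It was lower than SC in IMF (-0.90 ± 0.23, adjusted p = 0.00154) and Kid (-0.93 ± 0.28, adjusted p = 0.00994), and gave -0.21 ± 0.18 in Inter and -0.05 ± 0.17 in Omen. The second ADAMTS5 probe gave -0.52 in IMF, called, and -0.45 in Kid, not called (adjusted p = 0.0706). In Inter and Omen its means lay above SC, at -0.56 and -0.59 against -0.84.

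**Figure D4:**
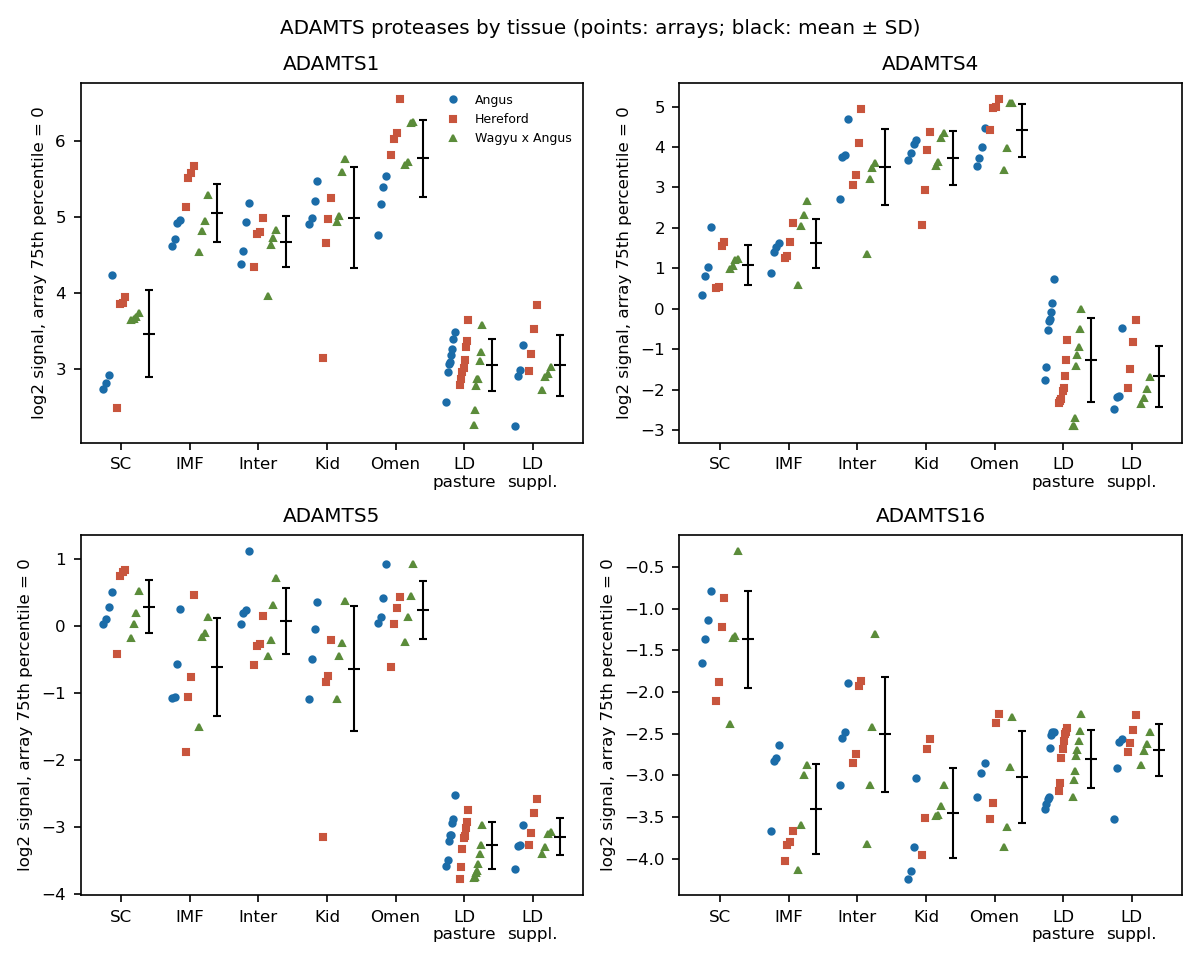
ADAMTS1, ADAMTS4, ADAMTS5 and ADAMTS16 on the log2 scale in each of the 7 groups, with a point per array and the mean ± SD in black. ADAMTS1 and ADAMTS4 are lowest in SC among the fat depots and highest in Omen, where ADAMTS4 runs from 3.44 to 5.19 against 0.35 to 2.02 in SC, and ADAMTS16 is highest in SC.

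Among the fat depots, other ADAMTS genes were highest in SC. ADAMTS16 ran from -2.38 to -0.31 in SC (median -1.35), from -4.14 to -2.63 in IMF (median -3.63) and from -4.24 to -2.56 in Kid (median -3.48). No IMF or Kid array reached the SC range. It was lower by -2.03 ± 0.22 in IMF (adjusted p = 2.13e-08), -2.08 ± 0.22 in Kid (9.6e-08), -1.14 ± 0.25 in Inter (0.000585) and -1.65 ± 0.23 in Omen (3.43e-06, on 11 Omen arrays since a spot was marked as an outlier). ADAMTS2, which removes the amino terminal propeptide of procollagen, ran from 2.74 to 3.27 in SC (median 2.95), from 0.38 to 2.57 in IMF (median 1.65), from 1.33 to 2.38 in Kid (median 1.74) and from 0.42 to 2.35 in Omen (median 1.77). SC stood above these 3 depots without overlap. The differences were -1.46 ± 0.19, -1.20 ± 0.11 and -1.23 ± 0.15, with -0.67 ± 0.11 in Inter, all called, and the second ADAMTS2 probe was called lower in IMF, Kid and Omen. ADAMTS12 was called lower in all 4 depots, by -0.48 in Inter to -0.98 in Kid, and so were ADAMTS7, by -0.33 in IMF to -0.90 in Inter, and ADAMTS17, by -0.60 in IMF to -1.23 in Inter, though neither gene was lower in IMF against the 1 SC array of the same scan day. The ADAMTS17 differences in Inter and Omen were -0.33 and -0.06 with scan day as a block over all 96 arrays, and not called. With the block among the compared arrays, ADAMTS16, ADAMTS2, ADAMTS12 and ADAMTS17 gave -1.86, -1.27, -0.51 and -0.25 in Omen and were not called.

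Several ADAMTS probes were close to background, which limits what they show. ADAMTS20 was not well above background on any SC array and was on all 12 IMF arrays, with means of -7.82 and -4.50. Its level in IMF was at least 2.96-fold higher than in SC (adjusted p = 1.39e-10), a bound for which each SC array was raised to its dimmest signal that counted as measured, unless the probe itself was brighter. That difference was 0.20 and not called with normexp (adjusted p = 0.181), and the sign of the Kid difference, called higher than SC (adjusted p = 0.000391) but with no SC array to measure its size, turned with normexp. ADAMTS8 in IMF (1.16 ± 0.25, on 11 IMF arrays) and ADAMTS6 in Inter (1.33 ± 0.31) were called higher than SC, and normexp gave -0.02 and -0.19.

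Among the ADAMs, ADAM9, ADAM12, ADAM15 and ADAM17 were lower in IMF. ADAM12, which is active in muscle and fat cell differentiation, ran from -2.99 to -0.90 in SC (median -2.01) and from -5.51 to -3.11 in IMF (median -4.26). The groups did not overlap. ADAM12 differed by -2.22 ± 0.27 in IMF (adjusted p = 1.48e-07) and by -1.18 ± 0.39 in Inter (adjusted p = 0.014), and gave -0.64 ± 0.31 in Kid and 0.14 ± 0.28 in Omen. With a block for scan day among the compared arrays the IMF difference was -1.18 and not called. With slide as a random block the Inter difference was -1.08 and not called (adjusted p = 0.0528). ADAM9 and ADAM15 were lower in IMF without overlap, by -0.87 ± 0.11 and -0.90 ± 0.11. In Inter ADAM9 was called higher (0.44 ± 0.14, adjusted p = 0.0138), but gave 0.01 with normexp and with scan day as a block over all 96 arrays. ADAM17, which releases tumour necrosis factor from the cell surface, was lower by -1.02 ± 0.13 in IMF (adjusted p = 4.05e-07), where 11 of 12 arrays lay below every SC array, and by -0.23, -0.32 and -0.43 in Inter, Kid and Omen. ADAM10, a sheddase of Notch, was called higher in Kid (0.22 ± 0.09) and Omen (0.29 ± 0.08) and gave -0.21 ± 0.11 in IMF. Its second probe was not called in these depots, at 0.01 ± 0.10 in Kid and 0.11 ± 0.09 in Omen.

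ADAM23 and ADAM22 lack protease activity and are receptors of LGI proteins on nerve cells. ADAM23 was higher than SC in IMF (1.32 ± 0.14, adjusted p = 1.01e-08), Kid (1.30 ± 0.18) and Omen (0.99 ± 0.17), and gave 0.14 ± 0.14 in Inter. Its 4 other probes were all called higher in Kid and 2 of them in IMF, but they were well above background on only 2, 4, 7 and 9 of the 12 SC arrays, so no sizes are given. In Inter the probe measured on 7 SC arrays ran from -5.02 to -1.39, against -7.19 to -3.72 in SC. The means of the rest were -7.52, -5.76 and -4.99 in Inter, against -7.68, -6.09 and -5.46 in SC. ADAM22 was not called in any depot. ADAM32, which lies beside ADAM9 on chromosome 27, was lower by -1.68, -0.99, -0.78 and -1.25 in IMF, Inter, Kid and Omen (11 Omen arrays), but its second probe was called in none of them.

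IMF was then set against LD on pasture, the muscle that surrounds it. In IMF 20 of the 35 genes were higher and 9 lower than in LD, where 36% of all probes were higher and 39.3% lower, and the median difference was 1.03 against -0.04. With normexp, which moved the median of all probes by -0.35, there were 16 higher and 15 lower, and 27.4% of the calls of all probes were higher. The sign was the same in the 3 breeds for 28 of the 29 called genes, and in 29 of 29 when 12 IMF arrays met 8 LD arrays of the same scan day. Cell markers moved with them, and 7 of 7 adipocyte, 8 of 8 fibroblast, 7 of 7 endothelial and 6 of 7 macrophage markers were higher in IMF than in LD, with median differences of 4.18, 1.54, 1.12 and 1.51, while 11 of 11 skeletal muscle markers were lower (median -1.39). Their part in the differences was not tested. All 4 TIMP genes were higher in IMF, TIMP1 by 1.67 ± 0.10, TIMP2 by 1.75 ± 0.17, TIMP3 by 1.83 ± 0.17 and TIMP4 by 1.33 ± 0.14. MMP14 ran from -3.35 to -1.42 in IMF and from -6.89 to -4.03 in LD (median -5.48), where 12 of 24 arrays gave a signal well above background. All IMF arrays lay above all LD arrays (adjusted p = 1.64e-15), and the measured difference of 3.27 is uncertain because of the LD arrays near background. ADAMTS4 (2.89 ± 0.31), ADAMTS5 (2.66 ± 0.18) and ADAMTS1 (2.01 ± 0.12) were also higher in IMF. A further ADAMTS4 probe gave 0.00 ± 0.10, and the second ADAMTS5 probe gave 0.96 ± 0.12, also called. ADAMTS12 was called higher, but it was well above background on 3 of 24 LD arrays, so its measured difference of 2.44 is uncertain too, and it gave 0.05 with normexp (adjusted p = 0.784).

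Genes higher in LD than in IMF included ADAMTS14, another procollagen propeptide enzyme (-1.52 ± 0.27, adjusted p = 3.56e-06), ADAMTS20 (-1.03 ± 0.16), ADAMTS17 (-0.79 ± 0.28) and ADAMTS8 (-0.74 ± 0.22). With a block for scan day among the compared arrays ADAMTS17 gave -0.25 (adjusted p = 0.19) and ADAMTS8 gave -0.48 (adjusted p = 0.101), neither called. ADAMTS8 was also not called with the log2 values deposited by the authors (-0.43, adjusted p = 0.147). ADAM23 gave -0.81 ± 0.09 by its chosen probe, which was well above background on all 24 LD arrays. Of its 4 other probes 3 were called higher in IMF, but these were above background on only 11, 5 and 5 of the 24 LD arrays. The IMF mean fell inside the interval from SC to LD for 24 of the 35 genes, as it did for 63.5% of all probes. Outside them, with both differences called, IMF was higher than SC and LD for ADAMTS1, ADAMTS4 and MMP16, and lower than both for ADAMTS7, ADAMTS16 and ADAMTS17. This placement is by the chosen probes. The other MMP16 probes had means of -3.26 in IMF and -3.34 in SC, and of -2.22 and -2.76. The other ADAMTS4 probes had means of -2.11 in both IMF and LD, and of 0.71 and -2.14. Within the third scan day the IMF minus SC difference was 0.12 for ADAMTS7 and 0.01 for ADAMTS17, against -0.33 and -0.60 over all arrays.

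The effect of feeding was examined in LD, as supplement minus pasture with breed in the fit. Of the 35 genes 6 were higher with supplement and 1 was lower, where 5.65% of all probes were higher and 5.6% lower, and no gene separated the 2 groups without overlap. The genes were MMP19, TIMP1, ADAM15, ADAMTS2, ADAMTS12 and ADAMTS20, and ADAM22 was the lower one (-0.52 ± 0.16, adjusted p = 0.0338), but at 0.02 with normexp. The sign was the same in all 3 breeds for 5 of the 7, in 7 of 7 within the first scan day (8 arrays against 8) and in 4 of 7 within the second (4 Angus arrays against 4 Angus and 4 Hereford arrays), where TIMP1, ADAM15 and ADAM22 gave -0.02, -0.05 and 0.17. A scan day block left 4 of the 7 calls on the compared arrays and 1 of 7 over all 96. The 12 supplement arrays lay on 3 slides, a slide per breed and none of them shared with pasture arrays. With slide as a random block none of the 7 was called, 1 of all probes was called (0.00292%), and 3 of the 35 genes had an unadjusted p under 0.05, as did 2697 of all 34227 probes. Feeding and slide cannot be told apart within a breed. The labels do not give the kill of an LD array. The part of kill in the feeding difference, or in any other comparison with LD, could not be tested.

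MMP19 in LD ran from -2.92 to -1.67 on pasture (median -2.46) and from -2.64 to -1.45 with supplement (median -1.89). Most supplement arrays lay in the upper part of the pasture range and 3 of 12 above it. The difference was 0.46 ± 0.10 (adjusted p = 0.00309), at 0.43 in Angus, 0.51 in Wagyu x Angus and 0.45 in Hereford. Of its 2 other probes one gave 0.49 ± 0.13, called, and the other 0.18 ± 0.23. With the spread estimated from all 96 arrays the adjusted p was 0.478, and with slide as a block 0.504.

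TIMP1 ran from -0.07 to 0.37 on pasture (median 0.15) and from 0.08 to 1.08 with supplement (median 0.41). The arrays above the pasture range came from all 3 breeds, and the 4 Hereford supplement arrays, at 0.43, 0.64, 0.71 and 1.08, all did. The difference was 0.27 ± 0.07 (adjusted p = 0.00778), and the second probe gave 0.34 ± 0.08. Without the Hereford arrays, an alternative chosen after seeing the data, TIMP1 gave 0.14 (adjusted p = 0.215).

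ADAMTS20 was higher by 0.87 ± 0.22 (adjusted p = 0.00799) and ADAMTS12 by 0.75 ± 0.21 (adjusted p = 0.0202), the latter from a probe well above background on 3 of 24 pasture and 6 of 12 supplement arrays and at 0.21 with normexp. ADAMTS2 was higher by 0.34 ± 0.10 (adjusted p = 0.0258) and ADAM15 by 0.26 ± 0.08 (adjusted p = 0.0376). Leaving out each supplement array in turn raised the adjusted p to at most 0.0187 for ADAMTS20, 0.0479 for ADAMTS12, 0.0603 for ADAMTS2, 0.0861 for ADAM15, 0.0818 for ADAM22, 0.0181 for TIMP1 and 0.00796 for MMP19. The remaining inhibitors and gelatinases gave no call by their chosen probes, at -0.10 ± 0.11 for TIMP2, -0.24 ± 0.13 for TIMP3, 0.19 ± 0.09 for TIMP4, 0.17 ± 0.08 for MMP2, 0.15 ± 0.11 for MMP9 and -0.08 ± 0.20 for MMP14. Of the 4 other MMP2 probes 2 were called higher, at 0.25 and 0.40. In the same arrays 3 of 7 adipocyte markers were lower with supplement and 3 of 8 fibroblast and 5 of 7 endothelial markers higher, and their part in these values was not tested.

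The breed dependence of the feeding difference was called for ADAM22 (adjusted p = 0.00293) and TIMP1 (adjusted p = 0.0272), 2 of 35 genes against 16.2% of all probes. ADAM22 ran from -5.37 to -4.19 on pasture. With supplement the 4 Angus arrays were at -5.06, -4.76, -4.49 and -4.24, the 4 Wagyu x Angus arrays at -5.44, -5.24, -5.10 and -4.82, and the 4 Hereford arrays at -6.79, -6.17, -5.93 and -5.23. The Angus arrays stayed within the pasture range and 3 of the 4 Hereford arrays fell below it. The differences within breeds were 0.29 in Angus, -0.58 in Wagyu x Angus and -1.29 in Hereford. For TIMP1 they were 0.02, 0.26 and 0.54, and its breed dependence was not called with normexp (adjusted p = 0.076) or without any one of 3 supplement arrays, Angus replicates 1 and 3 and Hereford replicate 2 (adjusted p = 0.0568, 0.0706 and 0.0899). With slide as a random block the adjusted p was 0.772 for ADAM22 and 0.998 for TIMP1, and no probe was called (0%), with 1 of the 35 genes and 2135 of the 34227 probes at an unadjusted p under 0.05. ADAM22 was well above background on 8 of 12 supplement arrays, and normexp gave its breed dependence an adjusted p of 0.734.

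**Figure D5:**
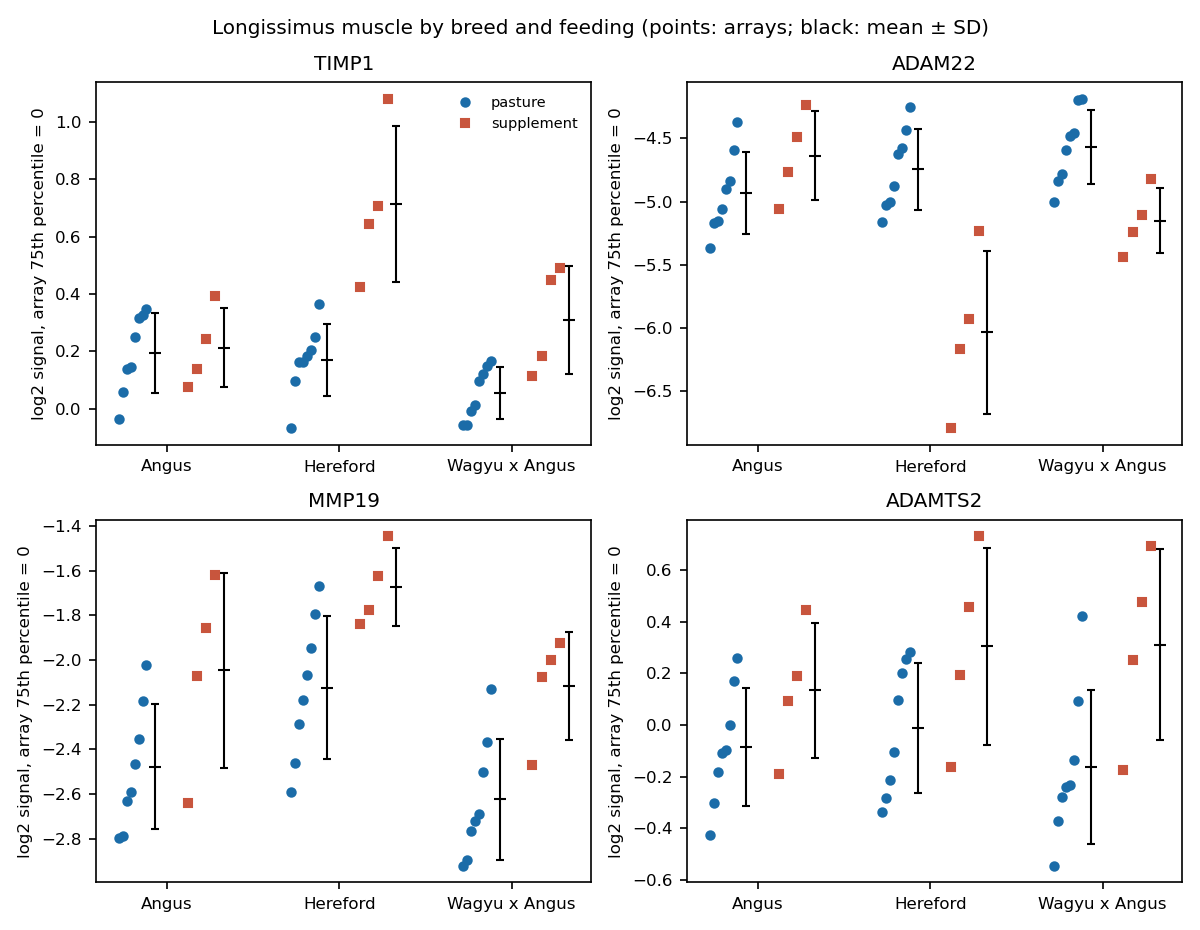
TIMP1, ADAM22, MMP19 and ADAMTS2 in LD on the log2 scale by breed and feeding, with a point per array and the mean ± SD in black. The Hereford arrays with supplement run from 0.43 to 1.08 for TIMP1 and from -6.79 to -5.23 for ADAM22 and include the highest and the lowest array of the plot for those genes, and each supplement group is 1 slide.

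Differences among breeds were few in fat. Fitted with depot over the 60 fat arrays, 2 of 35 genes differed among the breeds, against 3.2% of all probes. MMP15, a membrane bound MMP, was lower in Hereford than in Angus by -0.58 ± 0.17 and at 0.17 ± 0.17 in Wagyu x Angus (adjusted p = 0.0148, and 0.0213 with slide as a random block). Hereford had the lowest mean MMP15 in all 5 depots. TIMP3 was higher in Wagyu x Angus than in Angus by 0.39 ± 0.13, with -0.11 ± 0.13 in Hereford (adjusted p = 0.0337). Neither call was made by the 2 other probes of the gene, with adjusted p of 0.257 and 0.488 for MMP15 and of 0.272 and 0.352 for TIMP3. No dependence of the depot differences on breed was called by limma for any probe (0%), and 4 of the 35 genes had an unadjusted p under 0.05, as did 2457 of the 34227 probes.

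In LD on pasture 8 of 35 genes differed among breeds, against 14.7% of all probes. ADAM12 had a mean of -4.24 ± 0.55 (SD, n = 8) in Hereford, -5.62 ± 0.95 in Angus and -5.72 ± 0.85 in Wagyu x Angus (adjusted p = 0.0192), with 16 of the 24 arrays well above background, so the lower means are uncertain. ADAMTS20, MMP19 and MMP23 were also highest in Hereford. TIMP2 was lowest there, at 3.39 ± 0.22 against 3.89 ± 0.18 in Angus and 3.72 ± 0.40 in Wagyu x Angus (adjusted p = 0.0428). By other probes of these genes breeds were called for TIMP2 (adjusted p = 0.0436 and 0.0355), but not for MMP19 (0.404 and 0.194) or MMP23 (0.269). For ADAMTS4 the other probes gave 0.0149 and 0.0786. ADAM9 and ADAMTS4 were highest in Angus, the latter at -0.44 ± 0.81 against -1.56 ± 1.14 and -1.82 ± 0.56, and ADAMTS8 was highest in Wagyu x Angus. Breeds were largely on slides of their own, and with slide as a random block no probe was called (0%), with 2 of the 35 genes and 3371 of the 34227 probes at an unadjusted p under 0.05.

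Other genes of matrix breakdown were read beside these families, and their counts are to be set against the shares of all probes already given, for IMF 31.2% higher and 33% lower, for Inter 21.6% and 27.2%, for Kid 19.4% and 22.2%, and for Omen 20.5% and 25.2%; a count near these shares is not a result about the list. Of 10 genes of plasminogen activation, 8 were lower and 1 higher in IMF than in SC, while 2 and 2 were higher and lower in Inter, 4 and 2 in Kid and 3 and 2 in Omen. PLAUR, the receptor of urokinase, was lower in IMF (-1.45) and higher in Inter (0.72), Kid (1.14) and Omen (1.25). ANXA2, a plasminogen receptor on cells, was lower in all 4, by -0.64 to -1.46. Of 12 cathepsins and cystatins, 3 were lower and 0 higher in Inter, 4 and 4 in Kid, and 5 and 1 in Omen, with medians of 0.05, 0.46 and -0.09. In IMF 10 were lower and 2 higher (median -0.92), among them CTSC, a lysosomal peptidase, at -1.47 and the inhibitor CST6 at 1.47.

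Of 13 activators and regulators of metalloproteases, 9 were lower and 1 higher in IMF, 8 and 1 in Inter, 6 and 1 in Kid, and 6 and 3 in Omen. A2M, a plasma inhibitor that traps proteases, was at -1.03 in IMF and -0.94 in Kid and at 1.29 in Omen. Of 6 genes of procollagen processing and ADAMTS-like proteins, 3 were higher and 2 lower in IMF, 2 and 1 in Inter, 1 and 3 in Kid, and 1 and 3 in Omen. ADAMTSL2, an ADAMTS-like protein with no protease domain, was called higher in all 4 depots, by 2.36 in IMF, 1.21 in Omen and 1.12 in Kid. Of 11 proteoglycan genes, substrates of ADAMTS enzymes among them, 5 were higher and 4 lower in IMF, 3 and 2 in Inter, 3 and 5 in Kid, and 2 and 4 in Omen. VCAN, which encodes versican, was at -1.27, -0.36, -1.47 and -1.37 in IMF, Inter, Kid and Omen, and ASPN, a small collagen binding proteoglycan, was at 1.69, 1.74, 0.71 and 0.21.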

How the data were processed

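For each array the authors deposited scanner output with a processed signal per spot, which is a linear intensity after background subtraction without scaling between arrays, and log2 values of 34227 probes in a table, built from median spot and median local background signals. The authors' mixed model normalisation is not in these values and was not repeated. Here the processed signal was taken to log2 and the 75th percentile of 43653 non-control probes of the array was subtracted, without spots that the scanner marked as outliers, which removed 15 values of the genes described, and with spots of a probe averaged. Signal over background stands for depth. The share of tested probes well above background had group medians from 89.6% to 96.6%, and the number of arrays limits the precision. No arrays held identical values.

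Genes were named from RefSeq accessions (59 of the 68 probes) or the probe tables of the study (9). A TIMP1 and a TIMP2 probe carry another symbol in those tables, and 2 probes were left out because RefSeq names another gene. Genes that lie side by side are stated from RefSeq.

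Groups were compared on their own arrays in R 4.3.3 by the lmFit and eBayes functions of limma 3.58.1, with breed as a covariate for feeding and depot with breed over the 60 fat arrays. Benjamini-Hochberg adjustment ran over every probe tested. The method was tested on simulated data. Nothing in the labels says which arrays share a steer, so p-values measure the spread between arrays. The text names the TIMP genes, MMP2, MMP9 and MMP14, the 5 largest called differences in each direction per comparison, up to 10 called genes for feeding and breed, up to 4 genes per list, and others added after their values were seen. The members and lists were chosen with earlier results of these data known. Alternatives were quantile normalization, median centring, normexp with an offset of 50 on the median signals, the deposited log2 table, all non-control probes, a filter on dim probes, another probe per gene, the methods' equal-variance test, other covariates, and scan day, slide or replicate number as a block.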

Additional observations from a re-analysis of the deposited data

Results flagged for a closer look

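Of 7 genes whose probes were outside the tested table, 4 (MMP27, ADAMTS18, ADAM2 and ADAMTS3) had a probe well above background on 7 or more arrays of a fat depot, and MMP7, MMP20 and ADAM3A were so on at most 2 arrays of any depot. MMP27, a member of the MMP cluster on chromosome 15 that also holds MMP20 and MMP7, was well above background on 11 of 12 SC arrays, against 0 of 12 in IMF and in Kid, 1 in Inter and 2 in Omen, 3 of 24 in LD on pasture and 0 of 12 with supplement. It ran from -7.25 to -3.34 in SC (median -4.54), from -9.19 to -6.56 in IMF, from -9.36 to -7.56 in Kid, from -9.82 to -6.52 in Inter and from -9.32 to -4.29 in Omen. SC was the one tissue in which the probe was regularly measured. Against the depots with no array above background, the level in SC was at least 3.61-fold that in IMF and at least 4.44-fold that in Kid. These are descriptions with no test, since MMP27 was singled out for its signal in SC. The second MMP27 probe was above background on no SC array, so MMP27 rests on 1 probe.

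ADAMTS18 was well above background on 10 SC, 9 IMF, 12 Inter, 12 Kid and 12 Omen arrays and on 0 of 24 and 0 of 12 LD arrays. ADAM2, by 1 of its 2 probes, was so on 9 SC, 6 IMF, 11 Inter, 12 Kid and 12 Omen arrays, and on 2 and 1 in LD. ADAMTS3 was so on 8 Kid arrays by one probe and on 7 Inter, 8 Kid and 7 Omen arrays by another.

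The feeding difference in LD depended on breed for ADAM22 (adjusted p = 0.00293) and TIMP1 (adjusted p = 0.0272), by limma's test of the interaction, and for neither with slide as a block (0.772 and 0.998).

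Of 60 groups of 4 or 8 LD arrays tested for an array apart from the rest, 4 had one, where chance gives about 1 in 20. These were ADAM15 with supplement in Wagyu x Angus (lowest -0.19, next 0.12), ADAMTS12 on pasture in Hereford (lowest -7.46, next -6.56), ADAMTS20 on pasture in Angus (highest -3.50, next -3.71) and TIMP2 on pasture in Angus (lowest 3.49, next 3.83).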

How the results depend on the processing

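The depot counts moved most with background correction and scan day. With normexp, the genes higher in IMF than in SC went from 8 to 4, those lower in Kid from 15 to 24 and in Omen from 12 to 21, those lower in IMF than in LD from 9 to 15, the feeding calls to 3 higher and 0 lower, the breed calls in LD from 8 to 2 and the breed dependence of feeding from 2 to 0. With a block for scan day among the compared arrays, the counts against SC were 4 higher and 6 lower in IMF and 2 higher and 0 lower in Omen, feeding had 0 lower and breeds in LD 5, and for Inter no fit could be made since it shared no day with SC. With scan day as a block over 96 arrays, Inter had 3 higher, and feeding 1 higher and 0 lower. With slide as a random block, feeding had 0 higher and 0 lower, breeds in LD 0 and the breed dependence of feeding 0. Feeding also had 0 lower with the deposited log2 table, with the methods' equal-variance test and without a breed term, 2 higher and 0 lower with the spread from 96 arrays, and 2 higher and 0 lower without the Hereford arrays. Breeds in LD gave 5 with the deposited log2 table and 5 over all non-control probes. The replicate number equals the position on the slide on all 96 arrays, so it pairs no animals. With it as a block, breeds in fat gave 1 and breeds in LD 3. Leaving out each supplement array gave 4 to 9 higher, 0 to 1 lower and 1 to 3 for the breed dependence.

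Signs turned with normexp for ADAMTS8 in IMF (-0.02), ADAMTS6 in Inter (-0.19), ADAMTS20 and MMP17 in Kid (-0.53 and -0.01) and ADAM22 for feeding (0.02). MMP9 in IMF against LD fell to 0.00. With normexp 1 call became a call of the opposite sign in each of IMF, Inter and Kid against SC and in IMF against LD. With the probe of largest impact factor (IMF minus SC difference times mean level) the sign turned for ADAM23 in IMF against LD (2.51). That ADAM23 probe was well above background on 11 of 24 LD arrays. The remaining values of named genes comprised 1396 with the call unchanged, 104 no longer called and 9 newly called. Of all calls against SC, 48.6, 44.2, 46.6 and 44.9% were higher in IMF, Inter, Kid and Omen, and 26.4, 19.2, 20.2 and 16.4% with normexp. Against LD these were 47.8 and 27.4%. With median centring they were 37.1% in IMF, 34.2% in Omen and 34.8% against LD, and with the deposited log2 table the share for feeding was 73.2% against 50.2%. The cause of these changes was not tested. Probes near background limit ADAMTS20, ADAMTS12, ADAM12, ADAM22, ADAM23 by its other probes, MMP14 against LD, and MMP27.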
